A study of Mus musculus with 8 samples.

Results

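In primary cortical neuron cultures, 33 genes were at or near 0 in every library without hemin and at 1 FPKM or more in every library with it. FPKM is a fragment number scaled by transcript length and library size. The genes were chosen by their measured FPKM. A gene belonged to the set where its value was at most 0.1 FPKM in each of the 4 libraries without hemin and at least 1 FPKM in each of the 4 libraries with hemin. These limits selected 35 of the 19417 genes in the table, and Rmrp, the RNA of the RNase MRP complex, and the histone gene Hist1h3e were then left out by name. Because the levels with and without hemin chose the genes, the contrast of hemin with no hemin is described here and not tested.

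The cells were primary cortical neurons of C57BL/6 mice, with no genetic change given in the labels. Every culture was treated for 24 h, with DMSO as the vehicle, with 10 µM 4-OI, with 50 µM hemin, or with hemin and 4-OI together at the same doses. Each of the 4 groups had 2 libraries, numbered replicate 1 and 2. The labels do not say whether replicates came from separate cultures, so the p-values below rest on a spread between libraries that may be technical alone.

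Hemin is the oxidized, chloride-bound form of heme, and heme reaches neurons when blood enters the brain and hemoglobin is broken down. Cells answer heme by making heme oxygenase 1, and a heavy load brings the antioxidant, heat shock and unfolded protein responses. 4-OI, or 4-octyl itaconate, is a form of the metabolite itaconate that enters cells and is widely applied as an NRF2 activator, NRF2 being the main transcription factor of antioxidant genes. Among the 33 are genes known from the hypothalamus, muscle, lymphoid cells, epithelia and testis. These groups were sorted by hand once the 33 were known. The share of such genes among all genes silent without hemin was not counted, so the groups are not shown to be particular to the set.

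The estimated depth was 9.0 to 10.5 M (megafragments) a library. Hmox1, which encodes heme oxygenase 1, stood at 18.8 to 35.1 FPKM without hemin and at 755.3 to 1564 with it. The 8 neuronal markers summed to 1.81e+03 to 1.91e+03 FPKM without hemin and to 390 to 538 with it, and each of the 8 kept at least 1 FPKM in every library with hemin. Tubb3, the neuronal tubulin, went from between 1121 and 1179 FPKM to between 63.6 and 80.3. Over the same libraries the 8 astrocyte markers summed to 158 to 165 and to 333 to 842 FPKM. The 10 markers of microglia and macrophages summed to 55.7 to 97.9 and to 127 to 399. For the 6 fibroblast markers the sums were 7.17 to 8.85 and 20.4 to 41.5. Higher in every library with hemin than in every library without it were 8 of the 8 astrocyte markers. The same held for 5 of the 10 markers of microglia and macrophages and 5 of the 6 fibroblast markers. In bulk RNA, fewer cells of a type and less RNA per cell cannot be told apart. The part of these shifts in the results on the 33 genes was not tested.

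Few silent genes crossed the limits. At most 0.1 FPKM in each library without hemin was found for 3253 genes, of which the 33 are 1.01%, and 1997 of these were at 0 in all 4 libraries. In at least 1 library with hemin, 167 of the 3253 reached 1 FPKM, and 35 did so in all 4. The median over the 3253 of their highest value with hemin was 0.14 FPKM. With the limits exchanged, silent with hemin and detected without it, 0 genes were found. With the same limits set for 4-OI in place of hemin, the count was 0 too.

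**Figure D1:**
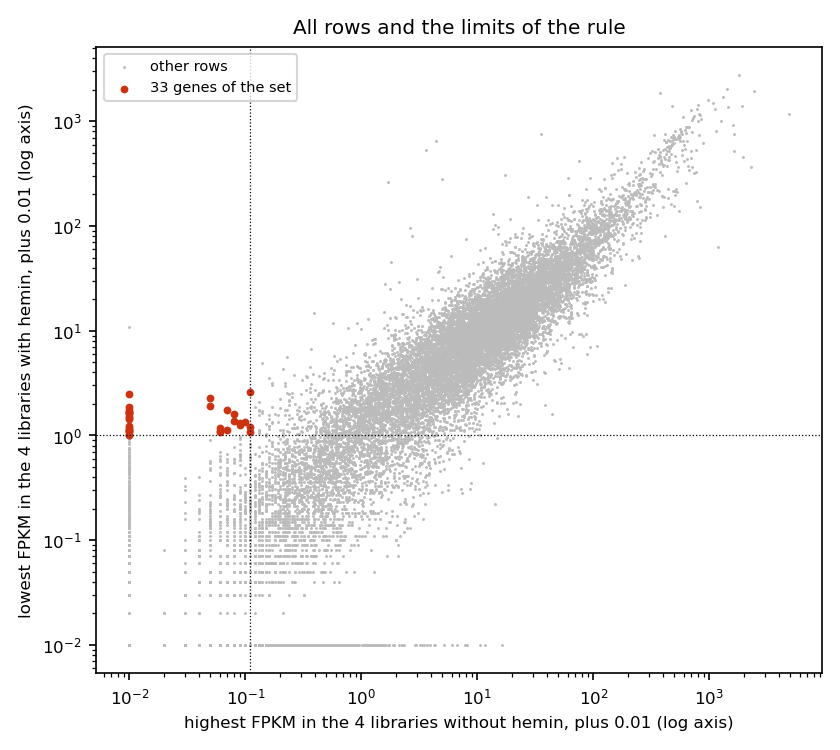
Each point is a gene of the table, placed by its highest FPKM in the 4 libraries without hemin and its lowest FPKM in the 4 libraries with hemin, on log axes after adding 0.01. Dotted lines mark the limits of 0.1 and 1 FPKM, and the 33 genes of the set (red) fill the sparse upper left corner, with most of the 19417 genes along the diagonal.

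Of the 33, 27 have gene names and 6 are unnamed models, with symbols made from clone or model numbers, a share of 18.2% against 11.1% of all genes in the table and 24.6% of the 3253 silent ones. None is a small RNA. RefSeq types 32 as protein coding and Gm44505 as a long noncoding RNA. The 32 that could be placed lie on 15 chromosomes, with at most 5 on any 1 of them. Transcripts that the authors' table marks as additional to the reference annotation were listed for 13 of the 33 (39.4%), against 3.84% of the silent genes and 47% of the 12704 genes with at least 1 FPKM in every library with hemin. Transcript length could be read for 16 of the set, with a median of 2044 bases. The median was 2329 over all genes with a known length and 1957 over the silent ones.

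Levels with hemin were low. The mean over the 4 libraries ran from 1.22 to 4.59 FPKM with a median of 1.76, 19 genes had a mean of at most 2, and 3 passed 5 FPKM in any library. Without hemin, 18 genes were at 0 in all 4 libraries and the other 15 were above 0 in at least 1. For the 16 genes of known length these levels correspond to about 3.1 to 82 fragments a library with hemin (median 32), and to at most 2.1 without it. Kiss1 and Arl9, with short transcripts, rested on the fewest fragments. About 4.1 and 10 stood behind Kiss1 in Hemin replicates 1 and 2, and 4.1 and 3.1 behind Arl9, so that counting error alone is large for both. No fold against the libraries without hemin is given, since most values there are 0.

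**Figure D2:**
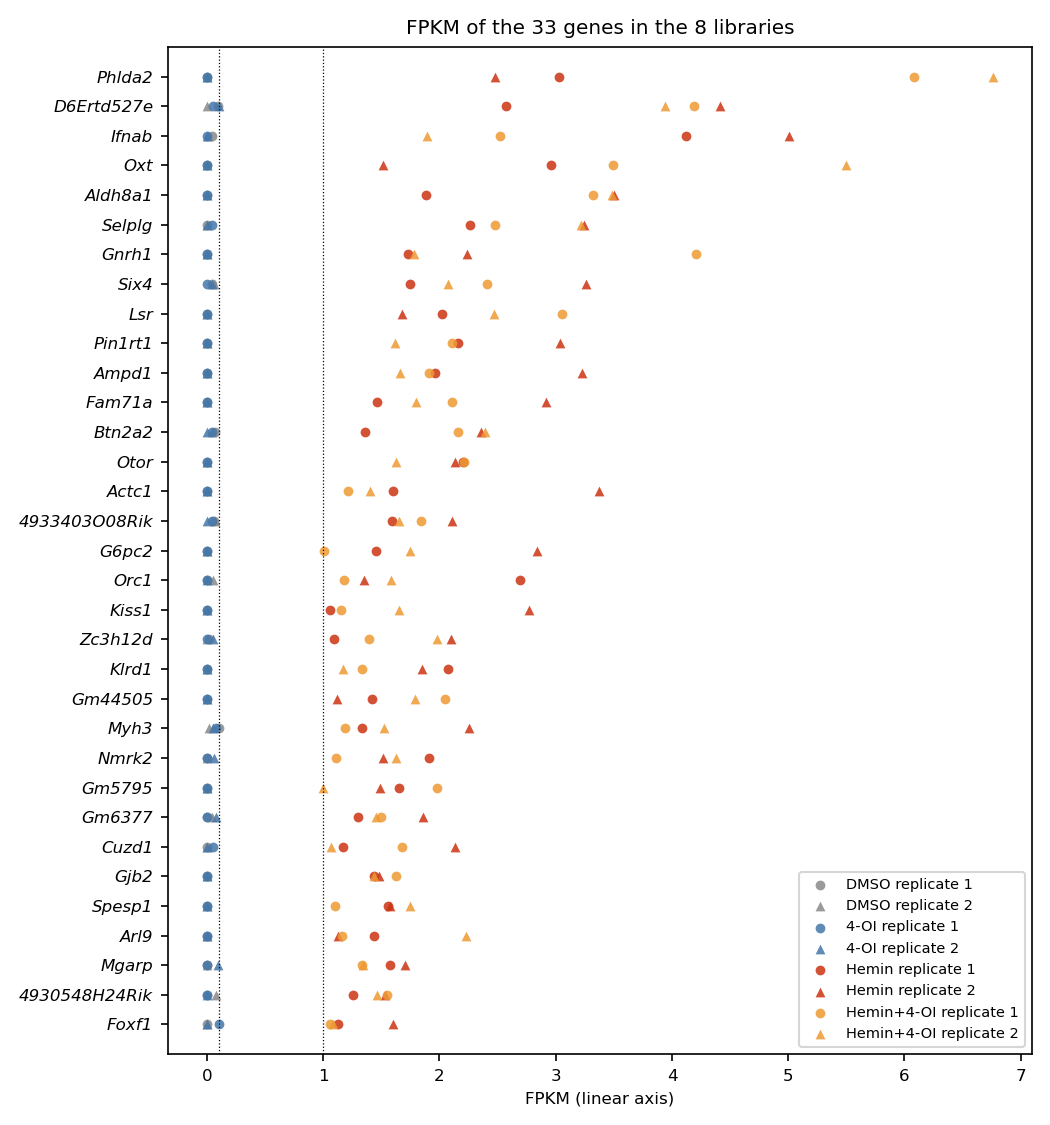
FPKM (linear axis) of each of the 33 genes in the 8 libraries, ordered by the mean with hemin, with colours for the groups and shapes for the replicates. The 4 libraries without hemin sit at or below 0.1, left of the first dotted line, and the 4 with hemin sit at or above 1, from 1 FPKM in Gm5795 to 6.76 in Phlda2.

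Sequences before the start sites are shown for the 3 genes with the lowest p for 4-OI under hemin, Phlda2, Ifnab and Oxt, and for 3 that carry a stress-response motif, Aldh8a1, Pin1rt1 and Lsr. They were chosen after the values and the motif search were seen. Each is the 250 bases before the RefSeq start site in GRCm38.p6, written 5′ to 3′ on the strand of the gene, with the letters of a found motif in capitals. The windows are chr7:143502525-143502774 on the minus strand for Phlda2, chr4:88691269-88691518 on the minus strand for Ifnab, chr2:130575919-130576168 on the plus strand for Oxt, chr10:21377050-21377299 on the plus strand for Aldh8a1, chr2:104716291-104716540 on the minus strand for Pin1rt1 and chr7:30973470-30973719 on the minus strand for Lsr.
Phlda2: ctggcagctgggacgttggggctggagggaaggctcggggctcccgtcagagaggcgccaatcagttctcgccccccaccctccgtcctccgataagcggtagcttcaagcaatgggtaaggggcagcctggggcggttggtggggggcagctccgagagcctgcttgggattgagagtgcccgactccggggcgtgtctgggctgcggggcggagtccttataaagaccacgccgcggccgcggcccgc
Ifnab: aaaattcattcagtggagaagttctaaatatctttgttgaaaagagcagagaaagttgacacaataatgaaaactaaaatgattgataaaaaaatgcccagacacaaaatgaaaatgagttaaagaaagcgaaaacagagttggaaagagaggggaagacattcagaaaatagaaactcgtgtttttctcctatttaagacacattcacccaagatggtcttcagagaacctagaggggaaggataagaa
Oxt: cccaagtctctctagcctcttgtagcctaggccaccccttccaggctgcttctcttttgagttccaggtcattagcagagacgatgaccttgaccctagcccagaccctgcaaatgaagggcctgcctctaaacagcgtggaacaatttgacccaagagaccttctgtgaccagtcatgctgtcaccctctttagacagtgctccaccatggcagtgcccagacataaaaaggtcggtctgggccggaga
Aldh8a1: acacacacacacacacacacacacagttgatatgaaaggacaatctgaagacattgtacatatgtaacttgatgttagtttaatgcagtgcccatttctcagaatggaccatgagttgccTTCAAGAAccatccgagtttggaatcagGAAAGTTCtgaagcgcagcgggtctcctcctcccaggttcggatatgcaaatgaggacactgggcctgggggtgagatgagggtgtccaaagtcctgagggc
Pin1rt1: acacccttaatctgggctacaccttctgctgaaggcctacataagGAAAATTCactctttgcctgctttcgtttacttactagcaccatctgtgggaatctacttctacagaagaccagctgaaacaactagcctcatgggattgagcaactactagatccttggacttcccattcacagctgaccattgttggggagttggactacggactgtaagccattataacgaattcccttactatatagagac
Lsr: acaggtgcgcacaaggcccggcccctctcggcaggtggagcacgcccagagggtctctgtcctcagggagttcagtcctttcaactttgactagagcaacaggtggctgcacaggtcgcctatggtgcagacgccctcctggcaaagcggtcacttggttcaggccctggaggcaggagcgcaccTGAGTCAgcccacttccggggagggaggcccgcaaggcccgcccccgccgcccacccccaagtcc
In Aldh8a1 and Pin1rt1 the capitals mark letters searched for as heat shock elements, which heat shock factor binds. In Lsr they mark letters searched for as the AP-1 site, which Fos and Jun proteins bind. No capitals appear in the other 3. The heat shock letters were found in 17% of all genes with a promoter window and 18.3% of the silent ones. For the AP-1 letters these shares were 8.97% and 11.9%. Phlda2 and Lsr have GC-rich windows (68.8% and 66.8%), whereas that of Ifnab is 34% GC, the lowest of the 28 matched in the set.

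Precursors of hypothalamic hormones were in the set. Here and below, paired values are replicates 1 and 2 in that order. Oxt, which encodes the oxytocin precursor, was at 0 in all 4 libraries without hemin, at 2.96 and 1.51 FPKM with hemin and at 3.49 and 5.5 with hemin and 4-OI. Gnrh1, the precursor of gonadotropin-releasing hormone, went from 0 in each library to 1.73 and 2.24 with hemin and 4.21 and 1.78 with both compounds. Kiss1, whose product kisspeptin acts on GnRH neurons, was likewise at 0 and then at 1.06 and 2.77 with hemin and 1.15 and 1.65 with both. Oxt was higher in both libraries with hemin and 4-OI than in both with hemin alone, while the values of Gnrh1 and Kiss1 overlapped between these groups. About 13 and 6.2 fragments stood behind Oxt with hemin, and 14 and 23 with both compounds. Its lack of overlap thus rests on 13 against 14 fragments, within counting error. For Gnrh1 a single library, Hemin+4-OI replicate 1, stood above the other 3. Receptors of the 2 peptides were measured too: Oxtr was between 0.24 and 0.94 FPKM over all 8 libraries, and Kiss1r between 1.82 and 2.15 without hemin and between 0.51 and 0.89 with it.

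A further group of genes is known mainly from immune cells. Ifnab, a type I interferon of the alpha family, was at 0.04, 0.01, 0 and 0 FPKM without hemin, at 4.12 and 5.01 with hemin and at 2.52 and 1.89 with both compounds. Its 2 libraries with hemin alone were the highest. The 6 other type I interferon ligand genes in the table reached at most 1.13 FPKM with hemin and 0.08 without, and 0 of the 6 met the limits. The value of 0.08 was that of Ifnz, which is not of the alpha family, and the other 5 were at 0 without hemin. The alpha genes are near copies of each other, so the division of fragments among them is uncertain. Selplg, the selectin ligand PSGL-1 of leukocytes, was at 0 except for 0.04 in 4-OI replicate 1, then at 2.26 and 3.24 with hemin and 2.48 and 3.22 with both. Klrd1, the CD94 chain of natural killer cell receptors, was at 0 without hemin, at 2.07 and 1.85 with it, and at 1.33 and 1.17 with both, so that its 2 groups with hemin did not overlap. Btn2a2, a butyrophilin that restrains T cells, showed 0 to 0.07 without hemin, 1.36 and 2.36 with hemin and 2.16 and 2.39 with both. Zc3h12d, a zinc finger regulator of messenger RNA decay in lymphocytes, showed 0 to 0.05 without hemin, 1.09 and 2.1 with hemin and 1.39 and 1.98 with both. For Selplg, Btn2a2 and Zc3h12d the values with and without 4-OI under hemin overlapped. Of 9 markers of T, B and natural killer cells, 8 are in the table. They summed to 0 to 0.22 FPKM without hemin and to 0.65 to 1.9 with it. Cd79a, a chain of the B cell receptor complex, made up much of the sum with hemin, at 0.64 and 1.5 FPKM with hemin and 1.24 and 0.5 with both compounds. Without hemin it was at 0 except for 0.18 in 4-OI replicate 1. Cd79a was the only marker of this list to enter the limma fit, and it passed the filter only through libraries with hemin. It was called higher in hemin against DMSO (a difference of 1.02 in log2(FPKM + 1)), as were 38.7% of all genes tested. In hemin with 4-OI against 4-OI it was called higher too (0.75), as were 33.3%. The filter favoured that direction, so nothing is read from these calls. Nkg7 was at 0 in all 8 libraries, and Cd3e was above 0 in only 1 (0.16 FPKM). The part of such cells in the values of these genes was not tested.

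Genes known mainly from muscle are described next. Actc1, the cardiac alpha-actin, was at 0 without hemin, at 1.6 and 3.37 FPKM with hemin and at 1.21 and 1.4 with both compounds. Ampd1, the AMP deaminase of skeletal muscle, was also at 0, then at 1.96 and 3.23 with hemin and 1.91 and 1.66 with both. In Actc1 and Ampd1 both libraries with 4-OI lay below both with hemin alone. Myh3, the embryonic skeletal myosin heavy chain, was detected at 0.02 to 0.1 in each library without hemin and stood at 1.33 and 2.25 with hemin and 1.19 and 1.52 with both. Nmrk2, a nicotinamide riboside kinase found mainly in muscle, was at 0 except for 0.06 in 4-OI replicate 2, then at 1.91 and 1.51 and at 1.11 and 1.63. These last 2 genes overlapped between the groups with hemin. Actins and myosin heavy chains are families of similar sequence, so fragments may be shared with relatives. The 6 muscle markers summed to 0.55 to 1.23 FPKM without hemin and to 2.6 to 4.45 with it, mostly through Acta1, the skeletal alpha-actin, at 2.21 to 3.14 with hemin. The defining markers Myh1 and Des were at most 0.2 FPKM in every library.

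Phlda2, Six4, Foxf1 and Orc1 act in growth and gene control. Phlda2, an imprinted gene that restrains placental growth, had the highest mean of the set. It was at 0 without hemin, at 3.03 and 2.48 FPKM with hemin and at 6.08 and 6.76 with both compounds, and these 2 groups did not overlap. Six4, a homeobox transcription factor, was at 0 to 0.06 without hemin, at 1.75 and 3.26 with hemin and at 2.41 and 2.07 with both. Foxf1, a forkhead factor of embryonic mesenchyme, sat close to both limits, with 0.1 in 4-OI replicate 1 and 0 in the other 3 libraries without hemin, 1.13 and 1.6 with hemin, and 1.06 and 1.08 with both. Orc1, the largest subunit of the origin recognition complex that licenses DNA replication, was at 0 except for 0.05 in DMSO replicate 2. With hemin it was at 2.69 and 1.35, and with both compounds at 1.18 and 1.58. Orc1 was 1 of only 3 genes whose highest library was Hemin replicate 1.

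Genes of epithelia and of secretion followed the same low pattern. Lsr, a lipoprotein receptor that also builds tricellular junctions, was at 0 without hemin, at 2.02 and 1.68 FPKM with hemin and at 3.05 and 2.47 with both compounds, with no overlap. Gjb2, the gap junction protein connexin 26, was at 0 and then nearly level at 1.44, 1.48, 1.63 and 1.44 in the 4 libraries with hemin. Otor, a secreted protein of cartilage and the inner ear, was at 0 and then at 2.2 and 2.13 with hemin and 2.21 and 1.63 with both. Cuzd1, a secretory-granule protein of the pancreas, showed 0.05 in 4-OI replicate 1 and 0 elsewhere without hemin, 1.17 and 2.13 with hemin and 1.68 and 1.07 with both. Beside these, the 5 epithelial markers in the table summed to 0.28 to 0.49 FPKM without hemin and to 7.6 to 8.33 with it. Most of the latter was Epcam, an epithelial adhesion protein, at 0 to 0.22 without hemin and 5.63 to 7.17 with it. Krt8 was at 0.06 to 0.19 without hemin and 0.59 to 0.86 with it, and Cdh1 at 0 and at 0.21 to 0.46, so that Epcam, Krt8 and Cdh1 were each higher in all 4 libraries with hemin. Krt18 was at 0.08 to 0.32 without hemin, at 0.61 and 0.86 with hemin and at 0.08 and 0 with both compounds. The part of epithelial cells in the values of Lsr, Gjb2, Otor and Cuzd1 was not tested.

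Metabolic and testis genes made up the rest of the named set. Aldh8a1, an aldehyde dehydrogenase, was at 0 without hemin, at 1.88 and 3.5 FPKM with hemin and at 3.32 and 3.48 with both compounds. G6pc2, the glucose-6-phosphatase catalytic subunit of pancreatic islets, was at 0 and then at 1.45 and 2.84 with hemin and 1.01 and 1.75 with both. Mgarp, a mitochondrial protein, was at 0.09 in 4-OI replicate 2 and 0 elsewhere without hemin, at 1.57 and 1.7 with hemin and at 1.33 and 1.34 with both, with no overlap. Spesp1, a protein of the sperm equatorial segment, was at 0 and then at 1.56 and 1.57 with hemin and 1.1 and 1.75 with both. Fam71a, a testis gene, went from 0 to 1.46 and 2.92 with hemin and 2.11 and 1.8 with both. Arl9, a small GTPase of the ARF family, was at 0 and then at 1.44 and 1.13 and at 1.16 and 2.23. Pin1rt1, a retrogene, was at 0 and then at 2.16 and 3.04 with hemin and 2.11 and 1.62 with both. Retrogenes resemble other sequences of the genome, so its value is uncertain. The 5 germ line markers in the table summed to 1.34 to 1.75 FPKM without hemin and to 2.24 to 3.16 with it, and Prm1 and Acrv1 were at most 0.1 in each library without hemin.

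The unnamed models have no assigned function. D6Ertd527e had the second-highest mean of the set, with 0 to 0.1 FPKM without hemin, 2.57 and 4.41 with hemin and 4.19 and 3.94 with both compounds. The value of 4933403O08Rik was 0 to 0.07 without hemin, 1.59 and 2.11 with hemin and 1.84 and 1.65 with both. Gm44505, annotated as a readthrough transcript that joins neighbouring genes, was at 0, then at 1.42 and 1.12 with hemin and at 2.05 and 1.79 with both. It was the only unnamed model whose groups with hemin did not overlap. Gm5795 went from 0 to 1.65 and 1.49 with hemin and to 1.98 and 1 with both. Gm6377 was at 0 to 0.08, then at 1.3 and 1.86 and at 1.5 and 1.45. For 4930548H24Rik the range was 0 to 0.08 without hemin and 1.26 to 1.55 with it. Gene models of this kind can be copies of other genes, so their values are uncertain.

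At the limits, Gm5795, G6pc2 and Foxf1 were the genes just inside, with lowest values with hemin of 1, 1.01 and 1.06 FPKM. Just outside were Ccdc175 and Lpar5, each at 0.99 in Hemin replicate 1, and Tmem171, at 0.97 in Hemin+4-OI replicate 1. Lpar5 was also at 0.95 in Hemin+4-OI replicate 2.

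Hemin with 4-OI was compared with hemin alone to ask whether 4-OI alters the levels under hemin. The choice of genes set the same lower limit in both groups and so fixed no direction between them. It did use these values, since a gene low in either group was left out, as Il6 was by 0.91 FPKM in Hemin replicate 1 and Tmem171 by 0.97 in Hemin+4-OI replicate 1. Counts and medians over the 33 therefore describe only genes that passed in both groups. By limma on log2(FPKM + 1), 0 of the 33 genes passed an adjusted p of 0.05, where 0% of the 13746 genes tested did. At an unadjusted p of 0.05, 5 of the 33 and 1209 of the 13746 (8.8%) passed. Of the 33 differences, 13 were above 0 and 20 below, with a median of -0.07 on the log2(FPKM + 1) scale. Over all genes 44.1% were above 0 and the median was -0.029. The genes with the lowest p were Phlda2, higher with 4-OI by 0.98 ± 0.16 (model SE, interval at 95% confidence 0.61 to 1.36), Ifnab, at -0.80 ± 0.18 (-1.20 to -0.39), and Oxt, at 0.78 ± 0.26 (0.19 to 1.37). They were followed by Klrd1 at -0.40 ± 0.16 and Lsr at 0.40 ± 0.17, and the limma adjusted p was 0.556 for each of the 5. The median standard error of the 33 was 0.201, so the fit leaves room for sizeable differences in most of them.

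Both libraries with 4-OI lay above both with hemin alone for 4 of the 33, Gm44505, Lsr, Oxt and Phlda2, where 14.4% of all genes tested did. They lay below for 7, Actc1, Ampd1, Foxf1, Ifnab, Klrd1, Mgarp and Pin1rt1, where 20.2% of all did. Both shares are near those over all genes. Without Hemin replicate 2, limma called 4 of the 33: Phlda2 (0.88, adjusted p = 0.00744) and Aldh8a1 (0.61, 0.0301) were higher with 4-OI, and Ifnab (-0.68, 0.0296) and Orc1 (-0.64, 0.0375) were lower. In that fit 32.9% of all genes tested passed, and the lone hemin library is assumed to vary like the other groups. Over all the alternatives the adjusted p ran from 0.00744 to 0.956 for Phlda2 and from 0.0296 to 0.956 for Ifnab. For the interaction, the difference with 4-OI under hemin minus that without hemin, 0 of 13746 genes passed, 689 had an unadjusted p under 0.05, and the lowest limma adjusted p among the 33 was 0.854.

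**Figure D3:**
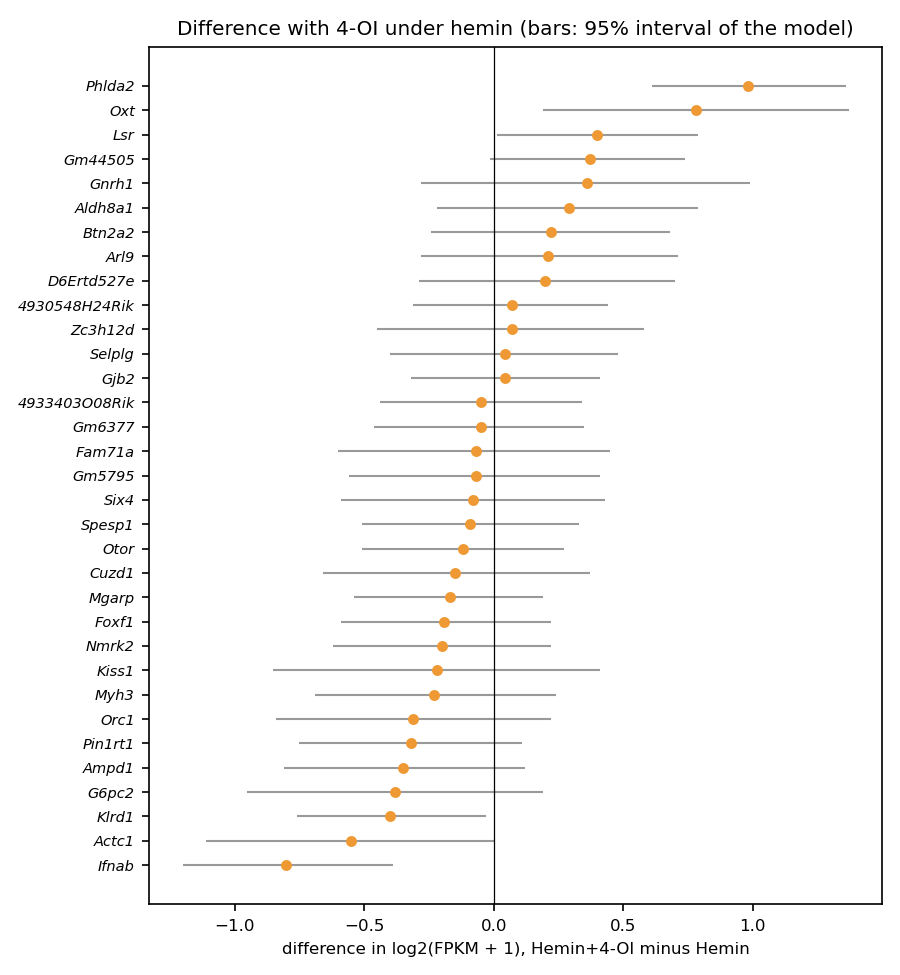
Difference in log2(FPKM + 1) between hemin with 4-OI and hemin alone for each of the 33 genes, with the interval at 95% confidence from the limma model, 2 libraries a group. Phlda2 (0.98) and Oxt (0.78) lie at the upper end and Ifnab (-0.80) at the lower end, and most intervals cross 0.

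Against DMSO, the rule makes all 33 genes higher with hemin, and 38.7% of the 13746 genes tested were called higher there. Scaling moved the balance of calls over all genes, which was 5321 higher and 3110 lower as deposited, 4160 and 4412 after median-of-ratios scaling, and 3669 and 4100 after quantile normalization. The median difference of all genes went from 0.19 to -0.021 and -0.025 under these scalings. In hemin with 4-OI against 4-OI the share called higher was 33.3%, and the rule again fixes the direction of the 33. Nothing is read from either count. The size of the fitted differences, a description only, had a median of 1.51 with hemin and 1.40 with hemin and 4-OI.

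The 2 libraries with hemin alone were not alike for the set. In Hemin replicate 2, 23 of the 33 (69.7%) were higher than in replicate 1, with a median ratio of 1.33. These values were 47.5% and 0.98 over the 12704 genes with at least 1 FPKM in every library with hemin. Those genes were not matched to the low levels of the set, so the difference is not shown to be particular to it. In the pair with both compounds 16 of 33 (48.5%) were higher in replicate 2, against 49.4%. The highest of the 4 libraries with hemin was Hemin replicate 2 for 18 genes, Hemin+4-OI replicate 1 for 7, Hemin+4-OI replicate 2 for 5 and Hemin replicate 1 for 3. Within single genes, the highest value with hemin was 1.13 to 3.64 times the lowest. The 2 libraries with hemin alone differed in other measures. Over the whole table, 1786 genes were at 0 in Hemin replicate 2 and 2031 in replicate 1, against 2086 and 2099 with both compounds. Hmox1 was at 1564 FPKM in Hemin replicate 1 and at 755.3 in replicate 2, and Csf1r, a microglial receptor, at 8.19 and 2.01. Whether these differences have a part in the levels of the 33 was not tested.

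None of the 33 belongs to the lists of stress and inflammatory genes examined beside them. The rule largely fixed this, since only genes silent without hemin could enter the set. Silent genes numbered 0 of 15 heat shock genes and 0 of 15 NRF2 targets. They numbered 1 of 10 genes of the ATF4 and CHOP response, and 14 of 35 cytokines and chemokines measured. Only 1.01% of all silent genes are in the set, so the absence does not set the 33 apart from such genes. In hemin against DMSO, limma called higher 38.7% of all genes tested. In the lists it called higher 15 of 15 heat shock genes tested (median log2 difference 1.69) and 10 of 10 genes of the ATF4 and CHOP response (2.21). It also called higher 11 of 14 NRF2 targets tested (1.93) and 14 of 15 cytokines and chemokines tested (1.25). Under the other scalings none of the listed genes was called lower. The fewest called higher were 8 of 13 cytokines and chemokines tested after quantile normalization, where 26.9% of all genes were. Genes silent without hemin could enter the fit only through libraries with hemin, which favours a higher call. Only 15 of the 35 cytokines and chemokines measured entered it, so their count is a description. Hspa1a, the inducible HSP70 chaperone, was at 3.36 to 4.36 FPKM without hemin and at 654.6 to 1005 with it. These lists had 0 calls in hemin with 4-OI against hemin. Il6, a cytokine that was also at 0 without hemin, missed the lower limit in only 1 library, with 0.91 and 1.11 FPKM with hemin and 2.09 and 2.74 with both compounds.

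The genes around the set were described from their order and strand, which the choice of genes did not use. In the GRCm38 annotation 32 of the 33 could be placed, and each was set against its nearest gene of the table that lies wholly before its start on the same strand. That gene ended within 10 kb of the start for 16 of the 32 (50%), against 17.6% of the other silent genes and 20.8% of all genes placed. After the end of the gene, on the same strand, a gene began within 10 kb for 7 (21.9%), against 16% of the other silent genes. Before the start but on the opposite strand the count was 4 (12.5%), against 10.2%. The window was chosen with the distances in view, and no window had been set in advance. At 5 kb the same-strand count before the start was 5 (15.6%, against 9.82%), and at 20 kb it was 20 (62.5%, against 28.4%). Within 20 kb the neighbour had at least 1 FPKM in every library with hemin for 18 of the 32 (56.2%). This was so for 14.5% of the other silent genes and 22.8% of all genes placed.

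Among the silent genes, the share with such a neighbour was larger at each higher level with hemin, in levels also chosen with the data in view. It was 14.9% of 1975 genes whose lowest value with hemin was 0, 20.9% of 527 above 0 and under 0.2 FPKM, 30.2% of 149 from 0.2 to under 0.5, 43.6% of 55 from 0.5 to under 1, and 50% of the 32 of the set. After the end of the gene the shares were 15.3%, 18%, 15.4%, 20% and 21.9%, and before the start on the opposite strand 9.52%, 11.4%, 12.1%, 14.5% and 12.5%. These shares are descriptions without a test, and the genes are not independent replicates. The table holds 1 value a gene, so where fragments lie within or between genes was not analysed here.

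**Figure D4:**
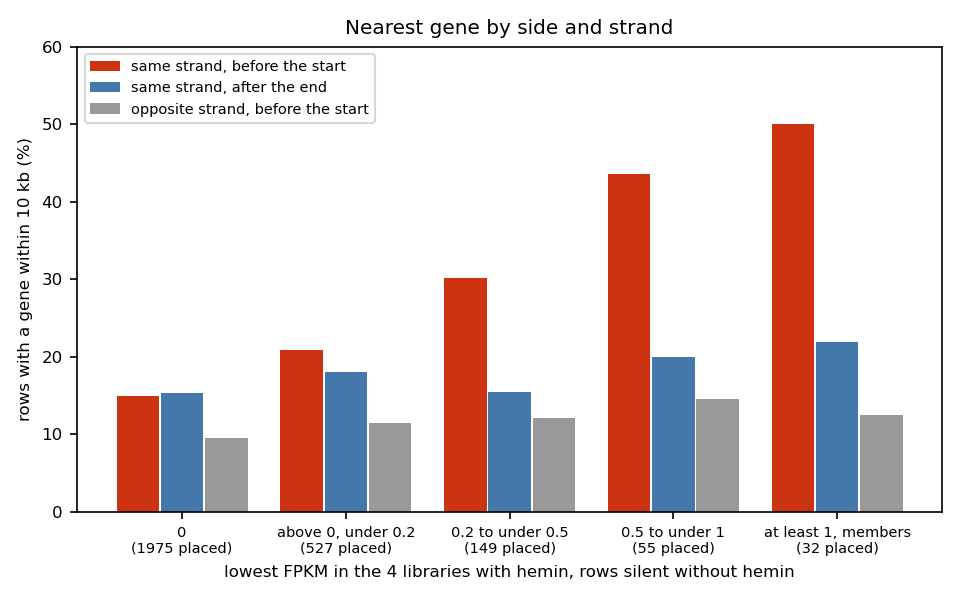
Share (%) of silent genes with a gene of the table within 10 kb, by the lowest FPKM in the 4 libraries with hemin, for neighbours before the start on the same strand (red), after the end on the same strand (blue) and before the start on the opposite strand (grey). The red bars go from 14.9% to 50%, while the blue bars stay between 15.3% and 21.9% and the grey bars between 9.52% and 14.5%.

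The neighbours on the same strand before the start varied in how their own levels moved. Their median log2 difference between libraries with and without hemin was 0.06 within 20 kb, against 0.11 for such neighbours of all genes. Of the neighbours within 20 kb, 4 of 20 stood over 1 on that scale, against 81 of 769 for the other silent genes and 647 of 5694 for all genes. Atf3, a stress-induced transcription factor before Fam71a, was at 1.85 to 2.7 FPKM without hemin and 80.7 to 126.5 with it, a difference of 5.03. Depdc7, before Pin1rt1, differed by 2.33, Klre1, a natural killer receptor gene before Klrd1, by 1.77 and Kctd9, before Gnrh1, by 1.25. In contrast, Oxt follows Mrps26, a mitochondrial ribosomal protein gene at 36.1 to 44.6 FPKM in all 8 libraries (-0.08). Phlda2 follows Nap1l4, a nucleosome assembly protein gene (-0.02), Selplg follows Coro1c (-0.77), and Nmrk2 follows Atcay (-1.40), 2 genes whose levels were lower with hemin. In the set, 4 genes overlap another gene, a share of 12.5% against 12.6% of the other silent genes and 21% of all genes placed. Cuzd1 overlaps Fgfr2, Gm6377 overlaps Sh3bgrl and Kiss1 overlaps Golt1a on the same strand, and Arl9 overlaps 1700112J05Rik on the opposite strand. Golt1a was at 0 to 0.25 FPKM in all 8 libraries. Strand use in counting is not given in the sources used here, so fragments of overlapping genes cannot be told apart.

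Promoters of 28 of the 33 were matched in RefSeq, each a window of 300 bases with 250 before and 50 after the start site. In all, 7 motifs were searched on both strands, and 8 of the 28 held any of them, against 48.5% of 27025 genes. A gene was counted where any of its windows held the letters, so genes with more windows had more chances of a match. The number of windows per gene was not compared between the set and all genes. The 28 had 30 windows, and for 24 of these the bases after the start were found in an annotated transcript of the gene. Heat shock elements, written GAANNTTC or TTCNNGAA, were found in Aldh8a1, Gm5795 and Pin1rt1 (10.7%, against 17% of all genes and 18.3% of the silent ones). The shares that follow are also set against all genes. The antioxidant response element, TGACNNNGC, which NRF2 binds, was found in Nmrk2 (3.57%, against 14%). Lsr held the AP-1 site, TGANTCA (3.57%, against 8.97%). Actc1, Gjb2 and Mgarp held the NF-kB site (10.7%, against 9.55%). The cAMP response element TGACGTCA, the amino acid response element TGATGNAA and the E-box CACGTG were in 0 of the 28, against 2.03%, 4.51% and 8.09%. Letters that match are not shown to be bound, and a window without a match says only that these letters are not in it. The median GC content of the 28 was 52.6%, against 52% over all promoters and 49.6% over those of silent genes.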

How the data were processed

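RNA from 8 libraries of mouse primary cortical neurons, 2 in each of 4 treatment groups, was analysed from the table of FPKM values that the authors deposited, with 19417 rows and 2 decimals. The submitters' processing notes name Bowtie2, RSEM and the mm8 build, while the versions, the annotation and the use of strand are not stated by them. Groups came from the sample labels.

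The 33 genes and the gene lists were chosen with earlier results of these data known. So were the neighbour windows, the levels behind their shares, the printed promoters, the placing of D6Ertd527e among unnamed models, and the context genes other than Hmox1, Hspa1a, Tubb3 and Rmrp. The rule for named genes took the 25 named members with the highest mean with hemin, the 5 highest unnamed models, the 5 lowest p with 4-OI, and 3 genes on each side of the limits. The remaining members were named to account for all 33. Besides the 7 motifs reported, a search for the letters TATAAA was run and dropped.

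Values were tested as log2(FPKM + 1), which understates changes of low genes, with limma 3.58.1 in R 4.3.3 (a mean for each of 4 groups, eBayes with trend, 4 residual and 4.28 prior degrees of freedom). Genes with at least 1 FPKM in 2 or more libraries entered, 13746 in all. Tests are two-sided, and p-values were adjusted by Benjamini-Hochberg over all genes tested, with a threshold of 0.05. All 33 enter that filter through the libraries with hemin. The script was tested on simulated data.

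Depth was estimated from the steps between low FPKM values of transcripts of 400 to 1200 bases. Between 74.6% and 81.6% of these came within 0.15 of a whole fragment, so fragment numbers are approximate. Symbols matched RefSeq for 19363 rows, and 18 rows had no symbol. Positions of neighbours are from GRCm38, a build other than that named for the table, and promoters are from RefSeq GRCm38.p6. Python 3.11.15, numpy 2.4.6, pandas 2.3.3 and matplotlib 3.10.9 were used. Alternatives were other limits, pseudocount, filters, scalings (TPM, median-of-ratios, quantile), a replicate block, a fit of the compared groups, no trend, leaving out each library, and, chosen after seeing the data, other neighbour windows. Single values of some genes are not reported here.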

Additional observations from a re-analysis of the deposited data

How the results depend on the processing

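The number of genes selected depends on the limits. It was 66 with at most 0.2 FPKM without hemin, 91 with at least 0.5 FPKM with hemin and 3 with at least 2 FPKM. After rescaling to TPM it was 53, of which 18 are among the 33, and after quantile normalization 8. Leaving out 1 library at a time gave 33 to 43. That step can only relax the limits, so all of the 33 stay and the count cannot fall. The count of genes with a same-strand neighbour before the start was 5 in a window of 5 kb, a window added after seeing the data.

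For hemin with 4-OI against hemin, limma called 2 genes lower with no filter and 2 lower with no trend, none of them among the 33. Without Hemin replicate 1 it called 1 higher and 4 lower, and without Hemin replicate 2 1883 higher and 2580 lower, 4 of the 33 among them, so leaving out 1 library gave 0 to 1883 higher, 0 to 2580 lower and 0 to 4 of the set. The cause was not tested. The median difference of the set ran from -0.15 to 0.11 when libraries were left out, and was 0.98 with the filter at 5 FPKM, where only Phlda2 of the set was tested. Without Hemin replicate 2, Phlda2 (0.88) and Ifnab (-0.68) passed the threshold. Over all genes, leaving out 1 library gave 3959 to 5823 higher and 2238 to 3709 lower for hemin against DMSO, and 3156 to 5698 and 2330 to 4139 for hemin with 4-OI against 4-OI. The balance of calls turned with the scaling. For hemin with 4-OI against 4-OI, 4575 higher and 3332 lower became 3741 and 4117 after median-of-ratios scaling and 3473 and 3877 after quantile normalization, and for hemin against DMSO lower calls also outnumbered higher ones under both. With the replicate number as a block, 0 of the 33 passed, their median was -0.07 and Phlda2 had an adjusted p of 0.602. Deviations of same-numbered libraries correlated between -0.09 and 0.05 over 6 pairs of groups, so no strong shared deviation was seen. These values cannot show whether same-numbered libraries share a culture or batch, which the labels do not give. The direction of Phlda2, Ifnab, Oxt, Klrd1 and Lsr was the same under each alternative run. Low fragment numbers limit the precision of single values, most of all for Kiss1 and Arl9.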
